A study of Homo sapiens with 4 samples.

Results

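The kallikreins KLK5 to KLK14 are 10 neighbouring genes of chromosome 19, and the accessible chromatin around them was read from the peak lists of BJ fibroblasts with and without ΔNp63α. All 10 genes were found in GENCODE release 44, and all lie on the minus strand, so KLK14 is upstream of KLK5 in the direction of transcription. A peak was taken when its summit, the base with the most reads, lay in the body of a member gene or no more than 20 kb from a transcription start site of one. This gave 10 of the 101142 peaks of the CTR list and 16 of the 109486 peaks of the p63 list on chromosomes 1 to 22, X and Y. Peaks of the lists that overlapped by at least 1 bp were joined, which gave 18 regions, named R1 to R18 in the order of their coordinates. Of these, 8 held a peak of both lists, 8 a peak of the p63 list alone and 2 a peak of the CTR list alone. Over the whole lists, 27.1% of p63 peaks and 21.4% of CTR peaks overlapped no peak of the other list.

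The paper names the BJ cells BJ-HDF, where HDF stands for human dermal fibroblasts. The CTR cells expressed KLF4 alone and the p63 cells expressed ΔNp63α together with KLF4, so KLF4 is shared by both groups. According to the methods, polyclonal lines carried the reverse tetracycline transactivator and a retroviral construct under an inducible promoter. They received 1 µg/ml doxycycline for 72 h, and each of the 2 samples per group was a new induction of the same lines. ATAC-seq marks accessible DNA through a transposase that inserts sequencing adapters, and 1 peak list per group was deposited. The methods say that peaks were called from both samples of a group, but the peak names of each list refer to 1 alignment made from a pair of inputs. Whether that pair was the 2 samples or the 2 mates of 1 library is not stated, so each pileup may reflect 1 or 2 samples. The lists hold no value per sample, so no spread between samples and no test between the groups can be given, and all intervals below cover counting error alone. In bulk chromatin, a region that is open in more cells and one that is more open in each cell cannot be told apart.

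Kallikreins are secreted serine proteases made as inactive proenzymes. In the upper epidermis several of them activate each other in a cascade and cut the proteins of the junctions that hold corneocytes together, so that the outermost cells are shed. KLK5, a trypsin-like enzyme that activates other kallikreins, and KLK7, a chymotrypsin-like enzyme that cuts corneodesmosin, are the best known of them in the stratum corneum, and the inhibitor LEKTI, the product of SPINK5, holds them in check. ΔNp63α is the main p63 isoform of basal keratinocytes and a DNA-binding regulator of the epidermal programme.

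Sequences of 5 regions are shown because they carry the main values below. R1 (chr19:50933772-50933897) is the region with the p63 site, and its p63 site and AP-1 motif are in capitals. R18 (chr19:51097300-51097595) had the highest p63 pileup, and its CTCF motif is in capitals. R12 (chr19:51038264-51038414) was the strongest p63 region with no CTR peak, and its best match to the p63 site is in capitals. R7 (chr19:51010542-51010642) had an AP-1 motif at the summit, shown in capitals, and R4 (chr19:50969674-50969867) lay at a KLK6 start site, with the summit base as a capital. All are GRCh38, plus strand.
R1: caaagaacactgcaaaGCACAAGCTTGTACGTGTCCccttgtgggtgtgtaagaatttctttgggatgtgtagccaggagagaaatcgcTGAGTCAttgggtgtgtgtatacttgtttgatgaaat
R18: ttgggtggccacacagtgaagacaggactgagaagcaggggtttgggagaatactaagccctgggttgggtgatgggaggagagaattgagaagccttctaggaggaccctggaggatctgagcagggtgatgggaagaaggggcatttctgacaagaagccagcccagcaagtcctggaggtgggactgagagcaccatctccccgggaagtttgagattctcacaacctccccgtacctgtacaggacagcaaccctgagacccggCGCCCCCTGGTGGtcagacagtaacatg
R12: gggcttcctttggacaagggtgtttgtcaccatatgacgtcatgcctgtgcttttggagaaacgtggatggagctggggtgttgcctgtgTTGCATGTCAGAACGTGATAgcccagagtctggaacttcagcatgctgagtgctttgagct
R7: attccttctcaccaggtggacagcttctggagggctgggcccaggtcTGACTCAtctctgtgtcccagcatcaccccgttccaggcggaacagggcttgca
R4: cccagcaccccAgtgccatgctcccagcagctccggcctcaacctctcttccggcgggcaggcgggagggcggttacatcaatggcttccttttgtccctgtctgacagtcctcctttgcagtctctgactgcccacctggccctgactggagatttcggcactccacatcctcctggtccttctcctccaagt

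Each deposited peak carries a fold enrichment, the pileup of reads at the summit over the local background, and a −log10 q, its significance against that background within its own list. The pileup at the summit, in reads, was recovered from these values. Peaks that reached the cutoff of the study, a −log10 q of 10, are called strong here. At R1, 18826 bp downstream of the nearest KLK5 start site and in intergenic sequence, the summit pileup was 19 CTR reads and 55 p63 reads. The ratio of p63 to CTR pileup was 2.89 (95% exact binomial interval 1.69 to 5.17), which was higher than that of 98.8% of all pairs of overlapping peaks in the lists. R1 was strong in both lists, with a −log10 q of 11.4 for the CTR peak and 45.4 for the p63 peak. R1 was therefore present without ΔNp63α and had the higher pileup with it, and its summits lay 41 bp apart. The fold enrichment was 6.99 for the CTR peak, over a local background of 1.86 reads, and 13.6 for the p63 peak, over 3.11 reads. The p63 site of R1 spans chr19:50933788-50933807 with 3 mismatches, its middle 44 bp from the p63 summit and 85 bp from the CTR summit, and the AP-1 motif TGAGTCA starts at 50933861.

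The other large difference was at the opposite end, at R18 (chr19:51097180-51097619), in intergenic sequence 13070 bp upstream of the nearest KLK14 start site at the p63 summit. KLK14 is a trypsin-like kallikrein that can activate KLK5. The pileup at R18 was 14 CTR reads and 64 p63 reads, a ratio of 4.57 (2.54 to 8.83), above that of 99.8% of all pairs. The CTR peak had a −log10 q of 7.50 and the p63 peak one of 52.6, so R18 was strong in the p63 list alone, where it ranked within the top 8.24% of peaks. The fold enrichment of R18 was 5.76 for the CTR peak, over a local background of 1.6 reads, and 14 for the p63 peak, over 3.65 reads. The CTR and p63 summits of R18 were 228 bp apart, so the ratio compares separate bases. The CTCF motif, which matched at all positions at chr19:51097568-51097580, lay 31 bp from the CTR summit and 259 bp from the p63 summit. The best p63 site match of R18 had 4 mismatches, 1 more than was allowed, and lay 284 bp from the p63 summit. The nearest start site of any protein-coding gene was that of CTU1, a tRNA-modifying enzyme, 11094 bp from the p63 summit, so R18 cannot be assigned to a kallikrein by distance.

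The third region that set the lists apart was R12 (chr19:51038190-51038572), in intergenic sequence 3109 bp upstream of a KLK12 start site. It had 19 reads in the p63 list (exact Poisson interval 11.4 to 29.7), with a −log10 q of 14.2 and a fold enrichment of 8.69, and no CTR peak at any −log10 q. The lists give no pileup where no peak was called, and the lowest pileup of any CTR peak was 6 reads, so no ratio can be given. The best match to the p63 site in R12 had 6 mismatches, and none of the 5 motifs searched was present.

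**Figure D1:**
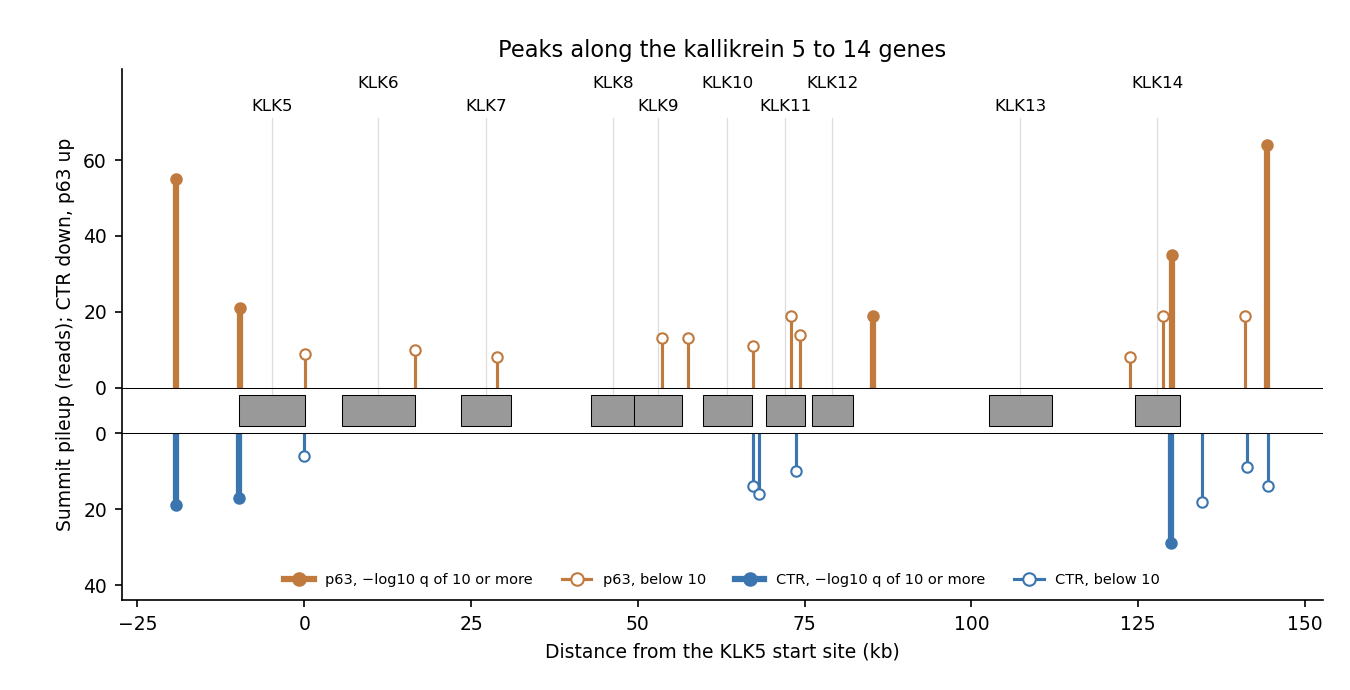
Summit pileup in reads of every peak (vertical axis, p63 upwards and CTR downwards) against distance from the KLK5 start site in kb, with the 10 genes as grey boxes, filled points for a −log10 q of 10 or more and open points for lower values. The highest p63 summits, with 55 reads at R1 and 64 reads at R18, stand at the 2 ends of the stretch shown, and no peak of either list lies in the 38.2 kb around KLK13.

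The remaining strong regions had ratios nearer to 1. R2 (chr19:50942926-50943693), at the 3′ end of KLK5, had 17 CTR reads and 21 p63 reads, a ratio of 1.24 (0.621 to 2.49), with a −log10 q of 12.2 and 15.3. Its p63 summit lay in the annotated UTR of KLK5 and its CTR summit 180 bp away in intergenic sequence. R15 (chr19:51082819-51083355) had 29 CTR reads and 35 p63 reads, a ratio of 1.21 (0.717 to 2.05), with a −log10 q of 15.1 and 19.7. R15 was the strongest CTR peak near a member, and its summits lay 113 bp and 283 bp upstream of the canonical KLK14 start site, in an intron of longer KLK14 transcripts. The intervals of both ratios include 1.

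Start sites of the other members held weak peaks or none. At the KLK5 start site, R3 had 6 CTR reads and 9 p63 reads, with a −log10 q of 1.44 and 4.46 and a ratio of 1.5 (0.477 to 5.12). The KLK6 start site had a p63 peak alone, R4, whose summit was 12 bp upstream, with 10 reads and a −log10 q of 5.02. KLK9 likewise had a p63 peak alone within 1 kb, R7, 958 bp upstream of a start site, with 13 reads and a −log10 q of 6.18. At KLK10, a member whose expression is lost in some breast cancers, the direction was the other way. R8 had 14 CTR reads and 11 p63 reads, with a −log10 q of 6.73 and 4.16, and its ratio of 0.786 (0.323 to 1.86) was the lowest of the 8 pairs. R8 lay 121 bp upstream of a KLK10 start site at the CTR summit and held a CTCF motif with 1 mismatch. At KLK11, R10 had 10 CTR reads and 19 p63 reads, with a −log10 q of 3.82 and 7.99 and a ratio of 1.90 (0.841 to 4.57). Its summits were 867 bp apart, each near a different KLK11 start site, so this pair compares separate bases of a wide region. The p63 list also had R11, 143 bp upstream of a further KLK11 start site, with 14 reads and a −log10 q of 4.76 and no CTR peak. The intervals of the ratios at R3, R8 and R10 include 1.

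Counted over genes, 4 of the 10 members (KLK5, KLK10, KLK11 and KLK14) had a CTR peak within 1 kb of a start site, against 72.1% of the 20033 protein-coding genes. With KLK6 and KLK9 added, 6 of 10 had one in the p63 list, against 72.4%. Of 10 keratinocyte marker genes counted in the same way, 2 had a CTR promoter peak and 4 a p63 promoter peak, and the part of this in the kallikrein counts was not tested. Only KLK14 had a strong promoter peak, in both lists. The shares of all genes above are for peaks at any −log10 q, so they cannot be set beside this count. KLK7, KLK8, KLK12 and KLK13 had no promoter peak in either list. KLK7 had a single p63 peak in its body, R5, in an intron 1843 bp from a start site, with 8 reads and a −log10 q of 3.56, and no CTR peak in its whole window.

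Apart from R5, 5 weak regions more than 1 kb from a start site had a peak in a single list. R6 lay in a coding exon of KLK9, which is also annotated in the readthrough gene ENSG00000269741, and had 13 p63 reads with a −log10 q of 5.92. R14, in an intron of KLK14, had 19 p63 reads with a −log10 q of 6.80, as many reads as R12 but over a local background of 3.51 reads in place of 1.3. R13, 6010 bp downstream of the nearest KLK14 start site, had 8 p63 reads and the lowest −log10 q of the p63 peaks, 2.68. The peaks of the CTR list alone were R9, 1015 bp upstream of a KLK10 start site, with 16 reads and a −log10 q of 7.73, and R16, 3322 bp upstream of KLK14, with 18 reads and a −log10 q of 7.29. R4, R5, R6 and R7 also lay in introns of the long noncoding RNA ENSG00000267879, so their summits cannot be assigned to a kallikrein by position alone. The same holds for R3, whose summits both lay in an intron of another long noncoding RNA, ENSG00000269495. In 5 members (KLK6, KLK8, KLK10, KLK12 and KLK13) the gene body held no peak of either list.

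**Figure D2:**
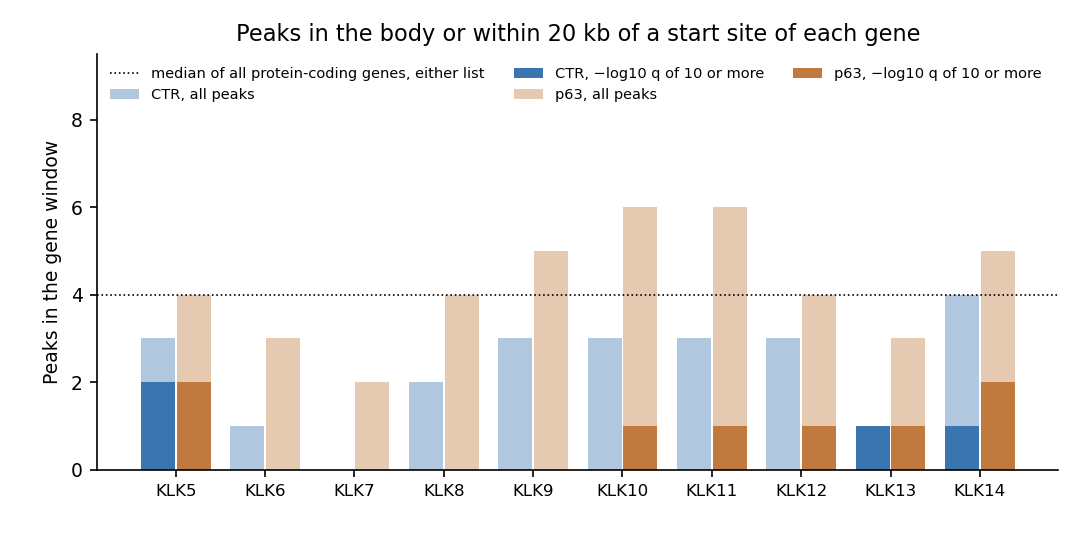
Number of CTR and p63 peaks (vertical axis) in the window of each member (horizontal axis), pale for all peaks and dark for those that reached a −log10 q of 10; the dotted line is the median of all protein-coding genes, 4 in either list. KLK10 and KLK11 had the most p63 peaks, 6 each, and KLK7 had the fewest, with 2 p63 peaks and 0 CTR peaks.

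Windows of neighbouring members overlap, so a peak can count for several genes. The median member had 3 CTR peaks and 4 p63 peaks, and the median protein-coding gene 4 and 4, in windows of 40.9 kb and 56.4 kb. At the cutoff, the median member had 0 CTR peaks and 1 p63 peak and the median gene 2 and 3. KLK8, another trypsin-like member, lay whole in a gap of 24.2 kb without a peak of either list, KLK12 in one of 10.6 kb and KLK13 in the longest, of 38.2 kb. Over the whole stretch of 172 kb there were 5.83 CTR peaks and 9.33 p63 peaks per 100 kb, and chromosome 19 as a whole had 5.43 and 5.92. These densities count peaks at any −log10 q. Of the 10 CTR peaks near members, 3 were strong (30%, against 56% of the CTR list). Of the 16 p63 peaks near members, 5 were strong (31.2%, against 56.9% of the p63 list).

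The counts of list-only regions were read against the whole lists. A strong peak was p63-only when it overlapped no strong CTR peak, and CTR-only in the reverse case. Of the 5 strong p63 regions, 2 (R12 and R18) were p63-only, which is 40.0% (95% Wilson interval 11.8 to 76.9%), against 23.9% of the whole p63 list. The interval contains the background share. Of the 3 strong CTR regions, 0 were CTR-only, against 16.5% of the CTR list. R12 was the 1 strong p63 region of 5 with no CTR peak at any −log10 q, against 12.0%. Of the 11 weaker p63 peaks, 7 had no CTR peak, against 47.2%, and of the 7 weaker CTR peaks, 2 (R9 and R16) had no p63 peak, against 44.4%. A p63-only region lay in the windows of 4 of 10 members (KLK10, KLK11, KLK12 and KLK14), against 40.0% of all protein-coding genes, and 3 of these 4 share R12. A CTR-only region lay in the window of 0 of 10 members, against 27.4%.

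Among the 8 regions with a peak in both lists, the p63 pileup was the higher in 7, against 47.5% of all 78856 pairs. It was at least 2 times the CTR pileup in 3 (R1, R17 and R18), against 4.27% of all pairs, and at most 0.5 times in 0, against 2.17%. R17, in intergenic sequence 9777 bp upstream of the nearest KLK14 start site, had 9 CTR reads and 19 p63 reads, with a −log10 q of 2.78 and 6.15. Its ratio of 2.11 has an interval of 0.910 to 5.30, which includes 1. The summits of R17 were 261 bp apart, so its ratio compares separate bases. Its fold enrichment was 3.57 for the CTR peak, over a local background of 1.8 reads, and 4.12 for the p63 peak, over 3.86 reads. The median ratio was 2.07 over the 4 pairs with a strong peak in either list, and 1.70 over all 8, while the median of all pairs was 1. R18 entered these 4 pairs through its p63 peak alone, and the median over the 3 pairs with a strong CTR peak (R1, R2 and R15) was 1.24, so the median of 2.07 rests on R18. The background coverage of the p63 list was 0.957 times that of the CTR list, the lower of the lists. The summits were over 200 bp apart in 3 of the 8 pairs, against 6.39% of all pairs.

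**Figure D3:**
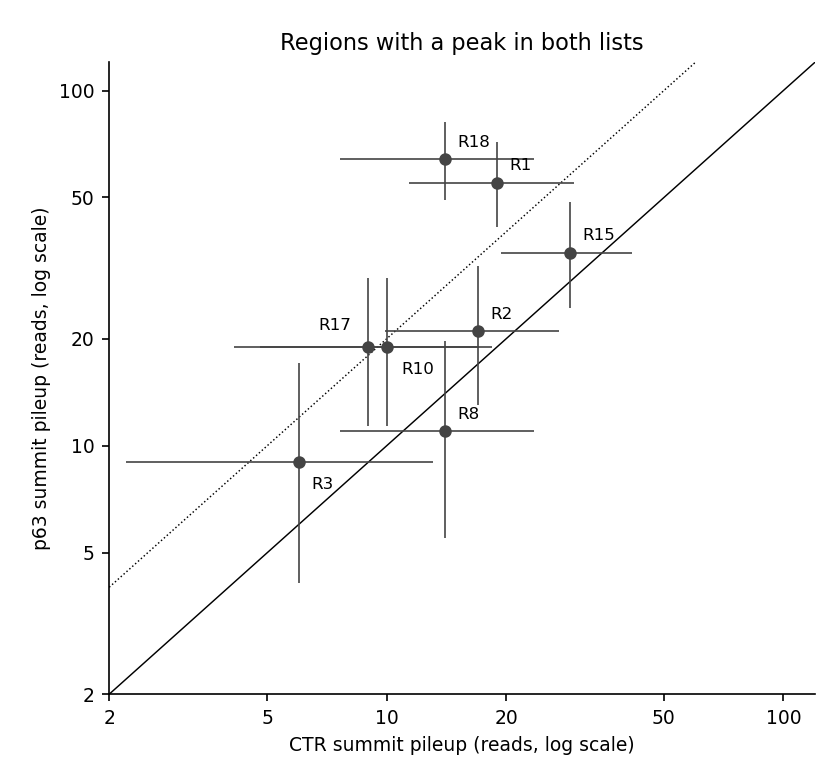
Summit pileup in the CTR list (horizontal axis, reads, log scale) against that in the p63 list (vertical axis, reads, log scale) for the 8 paired regions, with 95% exact Poisson intervals; the solid line marks equal pileups and the dotted line a p63 pileup of 2 times the CTR pileup. R1 and R18 lie above the dotted line, R17 lies just above it, and R8 alone lies below the solid line.

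**Figure D4:**
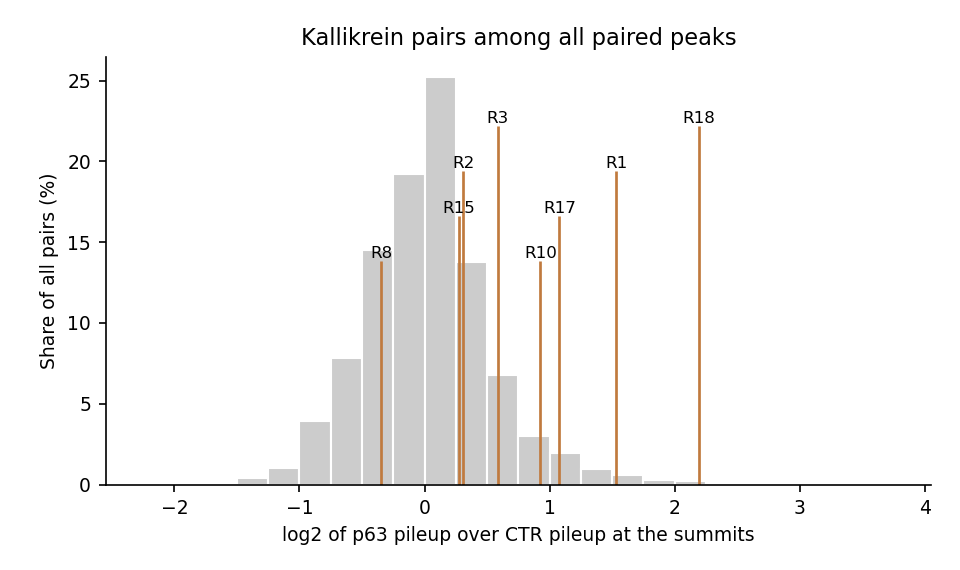
Share of all 78856 pairs in percent (vertical axis, grey bars) by the log2 ratio of p63 to CTR summit pileup (horizontal axis), with the 8 kallikrein regions as lines whose height has no meaning. R18 and R1 lie in the right tail, above 99.8% and 98.8% of all pairs.

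The sequence around the summits was compared with that of the whole lists. The p53/p63 family site was searched as a stretch of 20 bp in which the central C and G of each decamer had to match and up to 3 other bases could differ. It was found no more than 100 bp from the summit in 1 of the 16 p63 peaks (R1), against 3.95% of the p63 list, and in 1 of the 10 CTR peaks (R1 again), against 0.919% of the CTR list. Of the 2 p63-only regions, neither held it. The AP-1 motif TGACTCA or TGAGTCA, the site of JUN and FOS proteins, was present in 6 of the 18 regions (R1, R2, R5, R7, R14 and R17). Within 100 bp of the summit it was found in 2 of 16 p63 peaks, against 22.7%, and in 2 of 10 CTR peaks, against 24.1%. In R7 its middle base was the summit itself. The KLF motif (GGGCGGGGC, GGGCGTGGC, GGGTGGGGC or GGGTGTGGC) was present in R10 alone and in no peak within 100 bp of the summit, against 5.61% of the p63 list and 5.76% of the CTR list. The TEAD motif (ACATTCCA, ACATTCCT, GCATTCCA or GCATTCCT) was present in 0 of 18 regions, and near the summit in 8.04% of p63 peaks and 8.82% of CTR peaks of the whole lists. CTCF was present in R8 and R18, and near the summit in 0 of 16 p63 peaks, against 7.96%, and in 1 of 10 CTR peaks, against 8.98%. The median GC content around the summits was 54.0% for the CTR peaks and 57.2% for the p63 peaks near members, against 48.3% and 49.3% in the whole lists. All motifs were searched on both strands. A match is a description of the sequence and no evidence of binding.

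The other 5 kallikreins of the cluster, KLK1, KLK2, KLK3, KLK4 and KLK15, had 6 CTR peaks and 8 p63 peaks. Of their 4 strong p63 peaks, 2 were p63-only, the same number as among the 5 of KLK5 to KLK14, and 0 of their 2 strong CTR peaks were CTR-only. The stronger of the p63-only peaks, at chr19:50896637-50896923 and 10029 bp from a start site of KLK4, the kallikrein of enamel maturation, had 6 CTR reads and 40 p63 reads. The other, at chr19:50820281-50820506 in a coding exon of KLK1, the tissue kallikrein that releases kinins, had 23 reads and no CTR peak. Among 14 genes of the desquamation pathway outside the cluster, which comprise protease inhibitors, activating proteases, the receptor F2RL1, junction proteins, filaggrin (FLG) and the antimicrobial peptide precursor CAMP, the counts lay the other way. They had 24 strong CTR peaks, of which 5 were CTR-only, 20.8% (Wilson interval 9.24 to 40.5%), against 16.5% of the list. This interval contains the share of the list. Of their 20 strong p63 peaks, 0 were p63-only (0 to 16.1%), against 23.9%, which lies outside the interval. Only 1 of the 5 CTR-only peaks, at SPINT1, had no p63 peak at any −log10 q. The others overlapped p63 peaks below the cutoff, with a −log10 q of 5.91 to 9.97. Of the CTR-only peaks, 3 lay at SPINT2, an inhibitor of matriptase and prostasin, and the strongest had 35 CTR reads and 21 p63 reads. SPINK5, the gene of LEKTI, had 4 peaks in each list and 0 strong ones, and DSG1 and DSC1, junction proteins of the upper epidermis, had 0 peaks in either list.

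The labelled cell type was checked at the promoters of marker genes. Of 10 fibroblast markers, 9 had a strong promoter peak in each list, with COL3A1 as the exception. Of 10 keratinocyte markers, 2 (CDH1 and DSP) had one in each list, and KRT5, KRT14 and TP63 had none. At any −log10 q, a promoter peak was present at 2 keratinocyte markers for CTR and at 4 for p63, at 10 fibroblast markers for each, at 2 leukocyte markers for each, and at 0 endothelial markers for CTR and 1 for p63. A strong promoter peak was present at 2 of 4 leukocyte markers for CTR and at 1 for p63, and at 0 of 4 endothelial markers in either list. The part of other cells in the values above was not tested.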

How the data were processed

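ATAC-seq was performed in 2 samples per group and reads were mapped by the authors to hg38 with Bowtie2 2.3.4.3. Peaks were called by the authors with MACS2, whose version and options, duplicate removal and read shift are not given in the sources used here. The 2 deposited lists, 1 per group, hold for each peak a score, a fold enrichment (a ratio), a −log10 p, a −log10 q and a summit offset. Depth per sample is therefore unknown. The methods name both samples as the source of the peaks, and whether the pair of inputs in the peak names is the samples or the mates of 1 library is not stated. All peaks lay on hg38 sequences and within their ends. Coordinates are 1-based.

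Only peaks on chromosomes 1 to 22, X and Y were used. Summit pileups were recovered as whole reads from the fold enrichment (pseudocount 1) and the −log10 p, and 99.984% of peaks in each list were recovered within 0.0002. Paired pileups were compared with an exact binomial interval, single pileups with a Poisson interval and shares with a Wilson interval, all at 95%. No p-value was computed over peaks, which do not replicate a condition. Annotation was GENCODE release 44, and sequences were read from GRCh38 with pysam 0.24.0. The scripts were tested on simulated data. Member genes, lists and motifs were chosen with earlier results of these data known. All 10 members are named; regions with a −log10 q of 10 or more, or within 1 kb of a member's start site, are given with values. Motifs had to lie whole within the stated distance of the summit. Alternatives covered the threshold, window, overlap, ranking, motif and promoter rules.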

Additional observations from a re-analysis of the deposited data

How the results depend on the processing

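No paired analysis was possible because 1 list per group, with no value per sample, was deposited. Of 40 alternative values, 20 kept their value within 1.5 times, 20 moved and 0 reversed. Most of them are counts, which have no direction and cannot reverse. With all deposited peaks, 10 CTR and 16 p63 regions lay near members. Of these, 2 CTR regions (20%, against 21.4% of the CTR list) and 8 p63 regions (50%, against 27.1% of the p63 list) were list-only. At a −log10 q of 20 or more, 0 CTR and 2 p63 regions remained, R1 and R18. Both counted as p63-only at that cutoff because their CTR peaks, with a −log10 q of 11.4 and 7.50, fell below it. No share of the whole p63 list is given here for that cutoff. In gene bodies or within 5 kb of a start site there were 1 CTR region, 3 p63 regions, 1 p63-only region and 0 with a p63 site. With 50 kb in place of 5 kb there were 5 CTR and 8 p63 regions, with 0 CTR-only and 3 p63-only. Where peaks had to share 50% of their length to match, 1 region was CTR-only and 3 were p63-only. No share of the whole lists is given here for these window and overlap settings. Counting only regions without a peak of the other list at any −log10 q left 1 p63-only region. The p63 site was found in 0 strong regions with at most 2 mismatches, and in 0 where the whole 20 bp had to lie within 50 bp of the summit (the middle of the R1 site is 44 bp from it). A single decamer with 0 mismatches, an alternative chosen after seeing the data, also gave 0 strong regions. Anywhere in the 18 regions, such a decamer was found in 2, R14 and R18. Its middle lay 109 bp from the p63 summit in R14 and 125 bp from it in R18. Members with a promoter peak fell to 1 in each list at a −log10 q of 10 or more, a count for which no share of all genes is given here. With equal numbers of top-ranked peaks 2 regions were p63-only, and pileups divided by the background coverage gave a median ratio of 2.16. Over the pairs with a strong CTR peak, an alternative also chosen after seeing the data, the median ratio was 1.24. The counts rest on few regions of low pileup, so a region near the cutoff moves a count by a large share, and replicate spread cannot be given.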

Other observations

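RefSeq promoter sequences (GRCh38.p14, 250 bases before to 50 after the start) were matched for 9 members with 16 promoters, and KLK8 had no entry. None of the 16 held the p63 site, AP-1 or TEAD motif, which were found in 1.12%, 4.95% and 4.15% of 35116 promoters. The KLF motif was in 3 of the 16, 1 of KLK12 and 2 of KLK13, against 18.4% of all, and the CTCF motif in 1 of KLK14, against 3.43%. The 2 KLK13 promoters overlap and share the same KLF match. Promoters of KLK7, KLK10 and KLK14 also overlap in part, so the 16 are not separate sequences. KLK12 and KLK13 had no promoter peak in either list.

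Just outside the 20 kb windows, the nearest peak on the KLK5 side, at chr19:50922211-50922658 in the CTR list, had 23 reads there and 26 in the p63 list. On the KLK14 side it was the CTU1 promoter peak at chr19:51108031-51108881, with 72 CTR reads and 109 p63 reads.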
